A study of Homo sapiens with 24 samples.

Results

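The report concerns the mRNA-rich gradient pools of 293T cells that carry a mutant or a normal form of DIS3. The pools are fractions 7 and 8 of D146N cells (6 libraries) and fractions 3 and 4 of WT cells (6 libraries), which makes 12 of the 24 libraries of the series. They were chosen by the measured makeup of their RNA, the share of mRNA against small noncoding RNAs, and not by fraction number. The makeup is therefore described below without a test.

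293T is a human embryonic kidney cell line. In both groups endogenous DIS3 had been knocked down with the short hairpin RNA DIS3-sh2. D146N cells then received a DIS3 D146N rescue, and WT cells a DIS3 WT rescue. Cytoplasmic RNA was separated on a sucrose density gradient, depleted of ribosomal RNA and sequenced, with 3 replicate sets per genotype. Each set supplied fractions 3, 4, 7 and 8. The sets are described by the submitters as biological replicates, and whether a rescue came from 1 clone is not stated in the labels. Since every D146N library here comes from fractions 7 and 8 and every WT library from fractions 3 and 4, a difference between the genotypes and a difference between the fractions cannot be told apart. Which end of the gradient the numbering starts from is not given in the sources used here.

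DIS3 is a catalytic subunit of the RNA exosome, the complex that degrades RNA from its 3′ end. It has an exonuclease domain and a PIN domain with endonuclease activity, and the aspartate replaced in D146N is a catalytic residue of the PIN domain. A sucrose gradient separates RNA by the size of the particle it travels in, from free ribonucleoproteins to messages bound by many ribosomes.

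The 4 pools fall into 2 kinds. Protein-coding genes took 38.9 to 40.3% of all counts in D146N fractions 7 and 8, and 36.1 to 37.4% in WT fractions 3 and 4. In the other 12 libraries they took 15.2 to 16.2% in D146N fractions 3 and 4, and 18.8 to 24.4% in WT fractions 7 and 8. RPPH1, the RNA of RNase P, held 0.56 to 0.61% in the D146N mRNA-rich pool and 0.557 to 0.585% in the WT mRNA-rich pool, against 13.8 to 14.3% and 11.5 to 13.5% in the mRNA-poor pools of D146N and WT. Small RNAs still made up much of the mRNA-rich libraries. The 7SL RNAs of the signal recognition particle took 29.3 to 30.4% in D146N and 32.5 to 33.8% in WT.

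**Figure D1:**
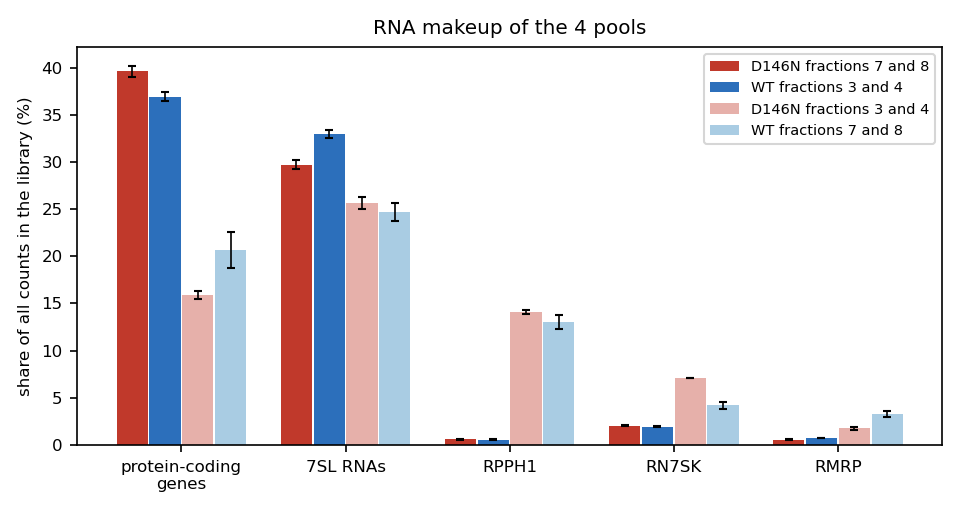
Share of all counts (%, y axis) taken by 5 RNA classes in the 4 pools; bars are means of 6 libraries and error bars their SD. In the mRNA-rich pools protein-coding genes averaged 39.6% in D146N and 36.9% in WT, and RPPH1 averaged 0.593% and 0.575%; in the mRNA-poor pools RPPH1 averaged 14.1% in D146N and 13.0% in WT.

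Library totals ran from 21.2 to 22.9 M counts in D146N fractions 7 and 8 and from 21.2 to 27 M in WT fractions 3 and 4. In a typical gene, D146N and WT libraries differed by 0.21 to 0.236 on the scale of log2 of CPM + 1 (median of the absolute differences over genes), against 0.144 to 0.176 between replicates of 1 genotype and fraction. Between the neighbouring fractions of a genotype the value was 0.149 to 0.171, close to that of replicates. WT fraction 8 replicate 3, an mRNA-poor library, stood apart from its replicates, with a chi-square per degree of freedom of 115 and 118 against 1.75 to 5.48 in all other replicate pairs. Results that use it are also given without WT replicate 3. Of 20 marker genes of 293 cells, 15 averaged at least 1 CPM (counts scaled to the library total), with EYA1 at 23.9 to 30.4 CPM in D146N and 22.5 to 27.1 CPM in WT, and PHOX2A and CRABP1 were at 0. Of 20 hepatocyte markers, 14 averaged at least 1 CPM, and their sum was 577 to 638 CPM in D146N and 681 to 723 CPM in WT. ALB, which encodes serum albumin, had 125 to 142 CPM in D146N and 115 to 128 CPM in WT. Blood markers summed to 3.89 to 7.19 CPM in D146N and 5.66 to 7.5 CPM in WT, with 6 of 17 at 0. HBB, which encodes a chain of haemoglobin, was at 0 in all 6 D146N libraries, where a count of 0 allows up to 0.131 to 0.141 CPM (3 counts per library, counting error only), against 0.27 to 1.37 CPM in the 6 WT libraries. HBB was called lower in D146N (adjusted p = 1.08e-06), but with median-of-ratios factors its adjusted p was 1. The fibroblast list summed to 80.8 to 87.9 CPM in D146N and 90.0 to 103 CPM in WT, with 7 of 14 averaging at least 1 CPM and FAP at 0. Epithelial markers summed to 70.9 to 77.9 CPM in D146N and 57.7 to 67.2 CPM in WT, with 5 of 15 averaging at least 1 CPM and KRT7, KRT14 and CLDN3 at 0. The part of these marker genes in any result was not tested.

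To ask which genes differed between pools of like makeup, the 2 fractions of each set were summed and 3 D146N sums were compared with 3 WT sums. Calls required an adjusted p under 0.05 in edgeR's quasi-likelihood test with Benjamini-Hochberg adjustment. Of 19217 genes tested, 4507 (23.5%) were called, 1994 (10.4%) higher and 2513 (13.1%) lower in D146N. The changes were small: 5% of the genes lay below -0.73 and 5% above 0.49 on the log2 scale. Called changes of at least 2-fold numbered 23 higher and 177 lower. The 6 D146N and 6 WT libraries did not overlap for 2420 genes (12.6%). All values are relative to the typical gene. With library totals in place of TMM factors the median log2 fold change of all genes was 0.15 instead of 0.00, and the calls were 4952 higher and 1364 lower. Changes and levels in CPM below are on the TMM scale, which scales each library by a factor for its makeup, and a list that turns direction on library totals is marked as such.

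Because a fraction of D146N has no stated partner in WT, each of D146N fractions 7 and 8 was also compared with each of WT fractions 3 and 4. The 4 pairs gave 2670 to 2878 calls each among 18070 genes. Called the same way in all 4 pairs were 1603 genes (8.87%), 479 (2.65%) higher and 1124 (6.22%) lower in D146N. The 4 pairs share their libraries and are not independent of each other.

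DIS3 itself (chr13:72752169-72781900, GRCh38.p14) is the gene that was knocked down and restored. Its level was 81.8, 94.0 and 107 CPM in the lowest, median and highest D146N library, against 95.1, 99.9 and 118 CPM in WT. The 6 D146N and 6 WT libraries overlapped. The log2 fold change was -0.12 (standard error, SE, 0.04; adjusted p = 0.0522), or 0.03 on library totals. It passed the threshold without D146N replicate 2 (-0.15, adjusted p = 0.0259) and without WT replicate 3 (-0.15, adjusted p = 0.0204). In edgeR it missed the threshold without D146N replicate 1 (-0.08, adjusted p = 0.256) or 3 (-0.11, adjusted p = 0.137). The same held without WT replicate 1 (-0.14, adjusted p = 0.0555) or 2 (-0.06, adjusted p = 0.376). Fits of 12 and 24 single libraries in edgeR also missed it (-0.11 in both, adjusted p = 0.217 and 0.337). With a filter of at least 1 CPM on average the adjusted p was 0.0275, and with small and mitochondrial RNAs left out it was 0.0417. These counts do not separate the endogenous message from that of the rescue, so they do not check the mutation.

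**Figure D2:**
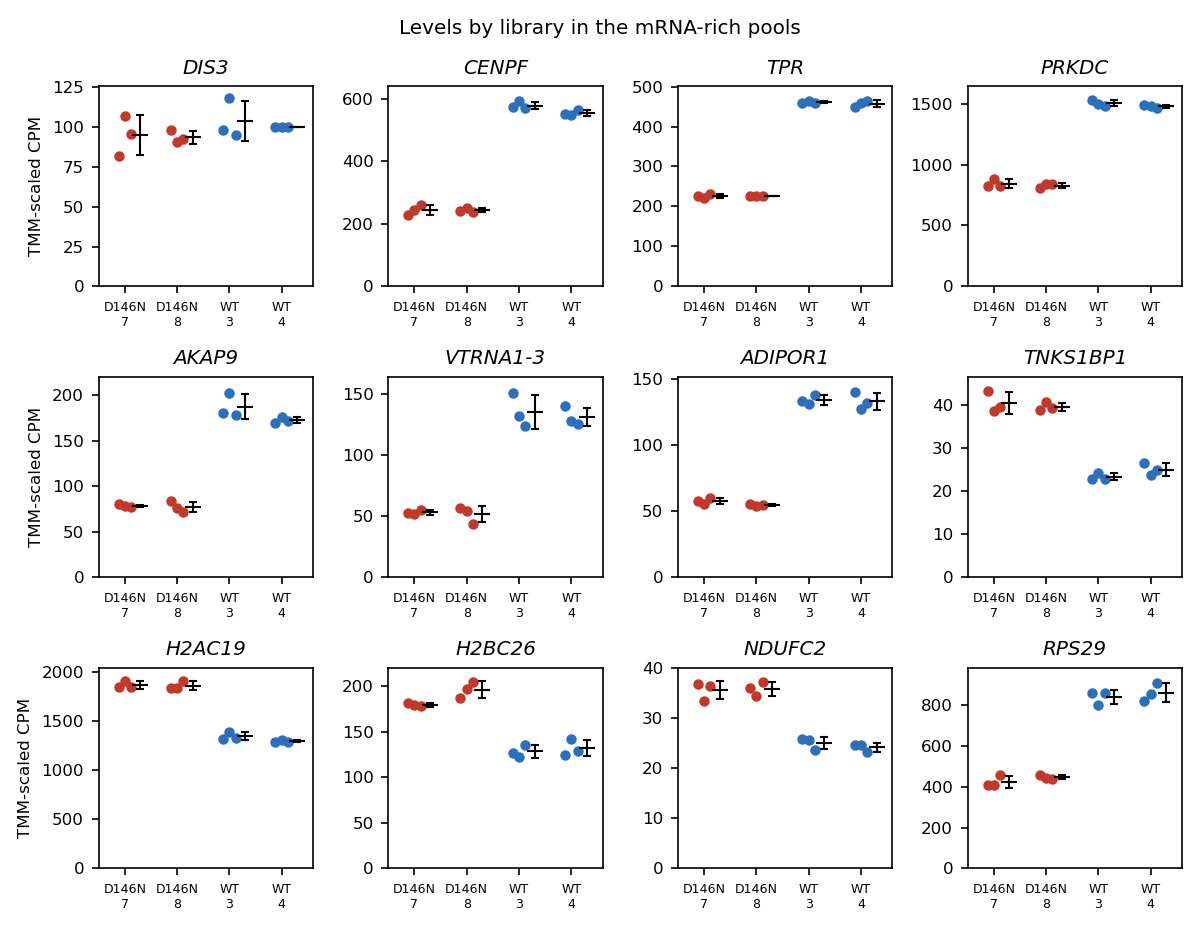
Levels of 12 genes in each of the 12 libraries (CPM with TMM factors, y axis from 0), D146N fractions 7 and 8 left of WT fractions 3 and 4; points are libraries, black marks the mean of 3 and bars the SD. DIS3 overlapped between the genotypes, whereas CENPF lay at 228 to 259 CPM in D146N and 548 to 593 CPM in WT, and TNKS1BP1 at 38.5 to 43.2 CPM in D146N and 22.7 to 26.5 CPM in WT.

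The subunits of the exosome moved little. Of 13 tested messages, 4 (30.8%) were higher and 2 (15.4%) lower in D146N, against 10.4% and 13.1% of all genes. Their median log2 fold change was 0.10, against 0.00 over all genes tested. On library totals 8 were higher, and neither of the 2 lower ones passed. EXOSC4, a ring subunit, had the largest increase at 0.42 (SE 0.11, adjusted p = 0.00489), with 7.89 to 12.9 CPM in D146N and 6.39 to 9.41 CPM in WT. EXOSC3, EXOSC5 and EXOSC1 were also higher, at 0.26, 0.28 and 0.25. EXOSC10, the nuclear exonuclease of the complex, was lower at -0.28 (SE 0.06, adjusted p = 0.00058), with 30.4 to 37.7 CPM in D146N and 39.3 to 42.4 CPM in WT and no overlap. EXOSC10 missed the threshold on library totals (-0.13, adjusted p = 0.0954). EXOSC9 was lower at -0.16 (adjusted p = 0.0103), and missed it on library totals at -0.01. Neither relative of DIS3 passed the test, with DIS3L at -0.09 and DIS3L2 at -0.05.

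Among the partners of the exosome, 4 of 20 were higher and 8 lower (median -0.02), and on library totals 10 were higher and 4 lower (median 0.13). For comparison with both lists here, 10.4% of all genes were higher and 13.1% lower, or 4952 and 1364 of 19217 on library totals. ZFC3H1, a subunit of the nuclear PAXT connection that feeds polyadenylated RNA to the exosome, had 18.5, 22.9 and 25.1 CPM in the lowest, median and highest D146N library, against 28.2, 34.6 and 36.5 CPM in WT. The groups did not overlap, and the log2 fold change was -0.59 (SE 0.06, adjusted p = 1.41e-08). The helicase MTREX was lower at -0.41 and the cap-binding protein NCBP1 at -0.48, whereas SRRT and ZC3H18, which link the cap to the exosome, were both higher at 0.31. The cytoplasmic Ski complex subunit SKIC3 was lower at -0.27, and its helicase SKIC2 did not pass the test at -0.11. Among messages for decay from the 5′ end and for deadenylation, 13 of 41 (31.7%) were higher and 12 (29.3%) lower (median 0.04), or 20 and 6 on library totals. XRN1, the 5′ exonuclease, was lower at -0.54 (SE 0.04, adjusted p = 5.57e-11), with 45.3 to 55.1 CPM in D146N and 68.4 to 79.1 CPM in WT. SMG1, the kinase of nonsense-mediated decay, was lower at -0.47, DDX6 at -0.40 and the deadenylase CNOT7 at -0.48.

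Messages of very large proteins were mostly lower in D146N. Of 42 such messages 41 were tested, and 35 (85.4%) were lower and 3 higher in D146N, against 13.1% and 10.4% of all genes. Their median log2 fold change was -0.53, or -0.38 on library totals. Together they held 0.621 to 0.647% of all counts in D146N and 0.822 to 0.847% in WT. Of the 41, 34 were lower in all 4 fraction pairs, against 6.22% of all genes tested in the pairs. All gene lists were chosen with earlier results of these data known, so their shares are a description.

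CENPF (chr1:214603195-214664571), a coiled-coil protein of the kinetochore, had 228, 244 and 259 CPM in the lowest, median and highest D146N library, against 548, 568 and 593 CPM in WT. Every WT library lay far above every D146N library, and the log2 fold change was -1.22 (SE 0.03, adjusted p = 7.12e-25). TPR, a scaffold of the nuclear pore basket, had 222, 226 and 232 CPM in D146N, against 449, 460 and 464 CPM in WT. Its 6 D146N libraries lay far below the 6 WT libraries, at a log2 ratio of -1.02 (SE 0.02, adjusted p = 1.29e-23). PRKDC, the kinase of DNA end joining, had 804, 831 and 883 CPM in D146N, against 1460, 1480 and 1530 CPM in WT. No library overlapped with the other genotype, and the log2 fold change was -0.84 (SE 0.02, adjusted p = 2.56e-23). DYNC1H1, the heavy chain of cytoplasmic dynein, was lower at -0.72, and GOLGB1, a Golgi tether, at -1.04.

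AKAP9, an anchor of protein kinase A at the centrosome and Golgi, had 72.1, 77.6 and 83.8 CPM in D146N, against 170, 177 and 203 CPM in WT. No library of either genotype came near the other, and the log2 fold change was -1.22 (SE 0.04, adjusted p = 8.57e-20). TTN, which encodes titin, had 14.8 to 17.1 CPM in D146N and 37.3 to 39.6 CPM in WT, a log2 fold change of -1.30 (SE 0.07). TTN is overlapped by an antisense gene, and whether the counting used strand is not given in the sources used here. The list was not uniform. MACF1, PLEC and KMT2B were higher at 0.17, 0.16 and 0.28, and AHNAK (-0.04), AHNAK2 (0.12) and KMT2D (0.04) did not pass the test. All of these encode very large proteins too.

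Over all protein-coding genes the direction tended to follow the length of the gene in the genome, introns included. Of 560 genes that span up to 3 kb, 26.6% were higher and 4.82% lower in D146N, with a median log2 fold change of 0.18. Of 2136 genes of 100 to 300 kb, 5.15% were higher and 25.7% lower, with a median of -0.09, and above 300 kb the median was -0.12. All of these are on the TMM scale, and values by span were not computed on library totals. There the median of all genes was 0.15 instead of 0.00, a shift larger than the medians of the long genes, so their sign depends on the scaling. Across 13491 genes Spearman's rho between span and log2 fold change was -0.27. In the mRNA-poor pools the same value was 0.02 over 11832 genes, or -0.07 over 11864 without WT replicate 3. Genes of 1 library are not independent, span is not the length of the mature message, and no test was run on rho.

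**Figure D3:**
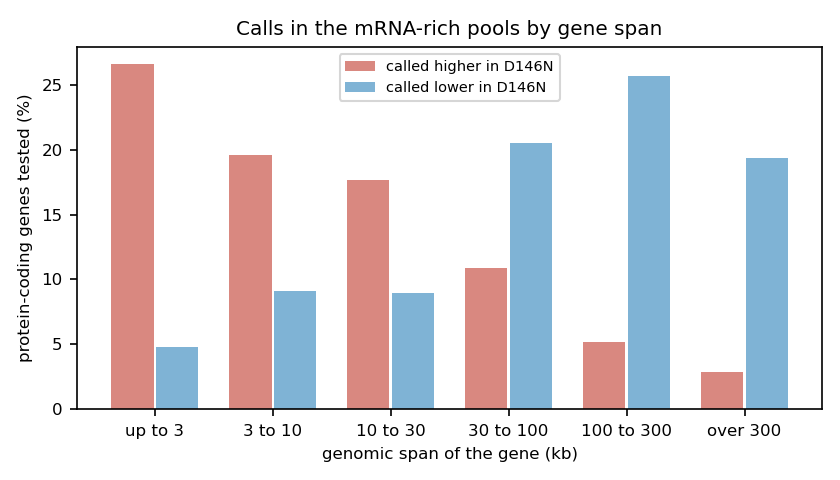
Share of tested protein-coding genes (%, y axis from 0) called higher or lower in D146N fractions 7 and 8 relative to WT fractions 3 and 4, by genomic span (kb, x axis). Calls higher in D146N made up 26.6% at up to 3 kb and 2.88% above 300 kb, and calls lower in D146N peaked at 25.7% between 100 and 300 kb. Calls are on the TMM scale only.

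The 15 called genes with the largest decrease, at 10 CPM or more on average, were not all long. These 15 were chosen for no overlap between the groups and for their fold change, so their size is a description. Besides CENPF, AKAP9 and TTN they included STRADB (-1.26), ADIPOR1 (-1.25), CPNE2 (-1.25), FNDC10 (-1.22), MIR4521 (-1.21), DBNDD1 (-1.15), PITX1 (-1.14), KCNQ1OT1 (-1.11), LYPLA1 (-1.11), CENPE (-1.10) and EEA1 (-1.09). The vault RNA VTRNA1-3 also met the rule, but belongs to the small noncoding RNAs whose share chose the pools, and its levels are given further on as a description. All 15 were also called lower in each of the 4 fraction pairs, where the lack of overlap fixes the direction. For VTRNA1-3 the calls carry no weight, since small noncoding RNAs chose the pools. ADIPOR1 (chr1:202940825-202958572), a receptor of the hormone adiponectin, had 54.3, 55.5 and 60.1 CPM in D146N, against 127, 133 and 140 CPM in WT. The groups were well apart (SE 0.04, adjusted p = 2.29e-21). This gene spans under 30 kb. STRADB, a pseudokinase partner of the kinase LKB1, had 21.5 to 26 CPM in D146N and 52.9 to 62.6 CPM in WT. EEA1, which tethers early endosomes, had 28.9 to 32.4 CPM in D146N and 56.5 to 72.6 CPM in WT. KCNQ1OT1 is a noncoding RNA antisense to KCNQ1, and its reads and those of KCNQ1 cannot be told apart without strand.

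MIR4521 is the only gene of a microRNA among the 15 and is therefore shown with its sequence. RefSeq places its hairpin at chr17:8186945-8187004 on the plus strand of GRCh38.p14. In the hairpin the capitals mark the mature arm, and in the mature miRNA they mark the seed, bases 2 to 8 from the 5′ end.
MIR4521: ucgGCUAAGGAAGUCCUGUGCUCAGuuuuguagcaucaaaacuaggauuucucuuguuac
hsa-miR-4521: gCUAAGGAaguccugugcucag
The count of the gene had 11.5, 15.1 and 16.5 CPM in D146N, against 27.6, 34.1 and 38.6 CPM in WT. The genotypes were fully apart. The RNA is small, so this too is a description. A count over this row does not separate hairpin, mature miRNA and longer transcripts that cover it.

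The 15 called genes with the largest increase changed less. TNKS1BP1 (chr11:57299642-57324952), a binding partner of tankyrase, had 38.5, 39.4 and 43.2 CPM in D146N, against 22.7, 24 and 26.5 CPM in WT. The groups did not overlap, and the log2 fold change was 0.73 (SE 0.06, adjusted p = 1.94e-11). TECPR1, which acts in autophagy, was higher at 0.68 and MT-ND6, a mitochondrially encoded subunit of complex I, at 0.67. MT-ND6 lies on the strand opposite to most mitochondrial genes, and the strand setting is not known here. GAR1, a protein of box H/ACA particles, was higher at 0.66 (SE 0.13, adjusted p = 0.00689), but 1 D146N library at 58.5 CPM stood apart, against a median of 32.3 CPM over all 6. Without D146N replicate 2 its log2 fold change was 0.50 (adjusted p = 1.72e-05), and without WT replicate 3 it was 0.68 with an adjusted p of 0.0547. The others were SDHD (0.59), PRR12 (0.59), NAT8L (0.59), ATP6V0E1 (0.57), MBD6 (0.56), GIT1 (0.55), PLEKHG2 (0.54), NDUFC2 (0.54), H2BC26 (0.53), SEC61G (0.53) and LAMTOR5 (0.52). They include subunits of complexes I and II (NDUFC2, SDHD), of the proton pump of lysosomes (ATP6V0E1), of the protein channel of the endoplasmic reticulum (SEC61G) and of the Ragulator complex (LAMTOR5). Of these 15, 13 were called higher in all 4 fraction pairs, and GAR1 and MBD6 missed a call in at least 1 pair. Their direction in the pairs is fixed by the choice of genes whose libraries do not overlap.

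Cell division genes split by direction. Of 34 genes of the G2 and M phases, 19 (55.9%) were lower and 7 (20.6%) higher, against 13.1% and 10.4% of all genes. Their median was -0.15, or 0.00 on library totals, where 11 were called each way. CENPF and CENPE belong to this list and to that of very long messages. MKI67, which coats mitotic chromosomes, had 161, 167 and 171 CPM in D146N, against 264, 274 and 283 CPM in WT. No library overlapped with the other genotype, and the log2 fold change was -0.72 (SE 0.03, adjusted p = 1.55e-18). TOP2A, the topoisomerase of mitosis, was lower at -0.65 and the kinesin KIF20B at -0.94. The short messages CKS1B (0.47) and CKS2 (0.36), which encode small partners of cyclin-dependent kinases, were higher. Of 30 S phase genes, 10 were lower and 6 higher (median -0.02), against 6 lower and 14 higher on library totals (median 0.13), with ATAD2 at -0.68, the polymerase subunit POLA1 at -0.48 and the reductase subunit RRM1 at -0.31.

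Replication-dependent histone messages, which are short, have no introns and end in a stem-loop in place of a poly(A) tail, were mostly higher. Of 69 histone genes 60 were tested. Higher in D146N were 48 (80.0%) and lower 0, against 10.4% and 13.1% of all genes. In all 4 fraction pairs 46 were higher, against 2.65% of all genes tested in the pairs. This list too was chosen with earlier results of these data known. The median log2 fold change was 0.36, or 0.51 on library totals, where 49 were higher and 0 lower. At an unadjusted p under 0.05 edgeR's test gave 49 higher and 0 lower, and DESeq2 with adjusted p gave 48 and 0. The histone genes together held 3.25 to 3.37% of all counts in D146N and 2.25 to 2.34% in WT. Histone genes share long stretches of sequence, so the split of reads among single copies is uncertain.

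H2AC19, a gene of histone H2A, had 1830, 1850 and 1910 CPM in D146N, against 1290, 1310 and 1390 CPM in WT. The genotypes were fully apart, and the log2 fold change was 0.49 (SE 0.02, adjusted p = 7.85e-19). H4C14, a gene of histone H4, had 2980, 3050 and 3180 CPM in D146N, against 2270, 2310 and 2340 CPM in WT. H3C15, of histone H3, had 2390, 2440 and 2610 CPM in D146N, against 1770, 1840 and 1870 CPM in WT. Both were apart in all libraries, at 0.41 and 0.43. The linker histone gene H1-4 was higher at 0.43, and H2BC26, of histone H2B, at 0.53 with 178 to 205 CPM in D146N and 122 to 142 CPM in WT.

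Since these genes moved together, the 120 bases before the start of 1 gene of each core histone are shown from RefSeq (GRCh38.p14, all on the plus strand). They are chr1:228457983-228458102 for H2BC26, chr1:149850941-149851060 for H2AC19, chr1:149832537-149832656 for H4C14 and chr1:149852488-149852607 for H3C15. Capitals mark every TATAAA and CCAAT on either strand, so that CCAAT can also read ATTGG.
H2BC26: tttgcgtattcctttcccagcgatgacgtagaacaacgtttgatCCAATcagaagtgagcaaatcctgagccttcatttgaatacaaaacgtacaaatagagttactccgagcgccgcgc
H2AC19: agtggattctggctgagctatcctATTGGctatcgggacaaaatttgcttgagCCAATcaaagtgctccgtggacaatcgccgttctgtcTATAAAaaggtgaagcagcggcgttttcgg
H4C14: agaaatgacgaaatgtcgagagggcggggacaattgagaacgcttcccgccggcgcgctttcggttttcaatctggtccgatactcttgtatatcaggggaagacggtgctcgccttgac
H3C15: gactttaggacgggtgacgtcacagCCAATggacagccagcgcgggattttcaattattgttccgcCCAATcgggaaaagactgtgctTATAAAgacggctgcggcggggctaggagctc
In this window, with both strands read, TATAAA was in 34 of 59 promoters of tested histone genes (57.6%), against 5.63% of 35116 promoters. CCAAT was in 49 of the 59 (83.1%), against 20.4% of all promoters. A match describes these letters and no more.

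Most messages for subunits of oxidative phosphorylation, the mitochondrial machinery that makes ATP, were also higher. Of 80 tested, 59 (73.8%) were higher and 2 (2.5%) lower, against 10.4% and 13.1% of all genes. The list, chosen with earlier results of these data known, had a median of 0.25 (0.40 on library totals). NDUFC2, of complex I, had 33.5, 36.2 and 37.3 CPM in D146N, against 23.2, 24.6 and 25.9 CPM in WT. Its groups did not overlap, with a log2 ratio of 0.54 (SE 0.06, adjusted p = 4.74e-08). UQCRH of complex III had 148 to 168 CPM in D146N and 117 to 124 CPM in WT, a log2 fold change of 0.38. COX7A2 and COX6A1 of complex IV were higher at 0.40 and 0.36. Of 81 mitochondrial ribosomal protein messages, 27 (33.3%) were higher, among them MRPL28, MRPL20 and MRPL51 at 0.39, 0.39 and 0.35, and 1 was lower, PTCD3 at -0.30. The other 53 did not pass the test, and the list's median was 0.16. On library totals 63 were higher and 1 lower. Of 21 citric acid cycle messages, 5 were higher, with SDHC at 0.35 and MDH2 at 0.22, 1 was lower and 15 did not pass. On library totals 14 of the 21 were higher. Mitochondrially encoded genes held 3.64 to 3.85% of all counts in D146N and 3.35 to 3.5% in WT. These shares were not tested and are on library totals, where the median log2 fold change of all genes was itself 0.15. They do not show a rise relative to the typical gene.

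**Figure D4:**
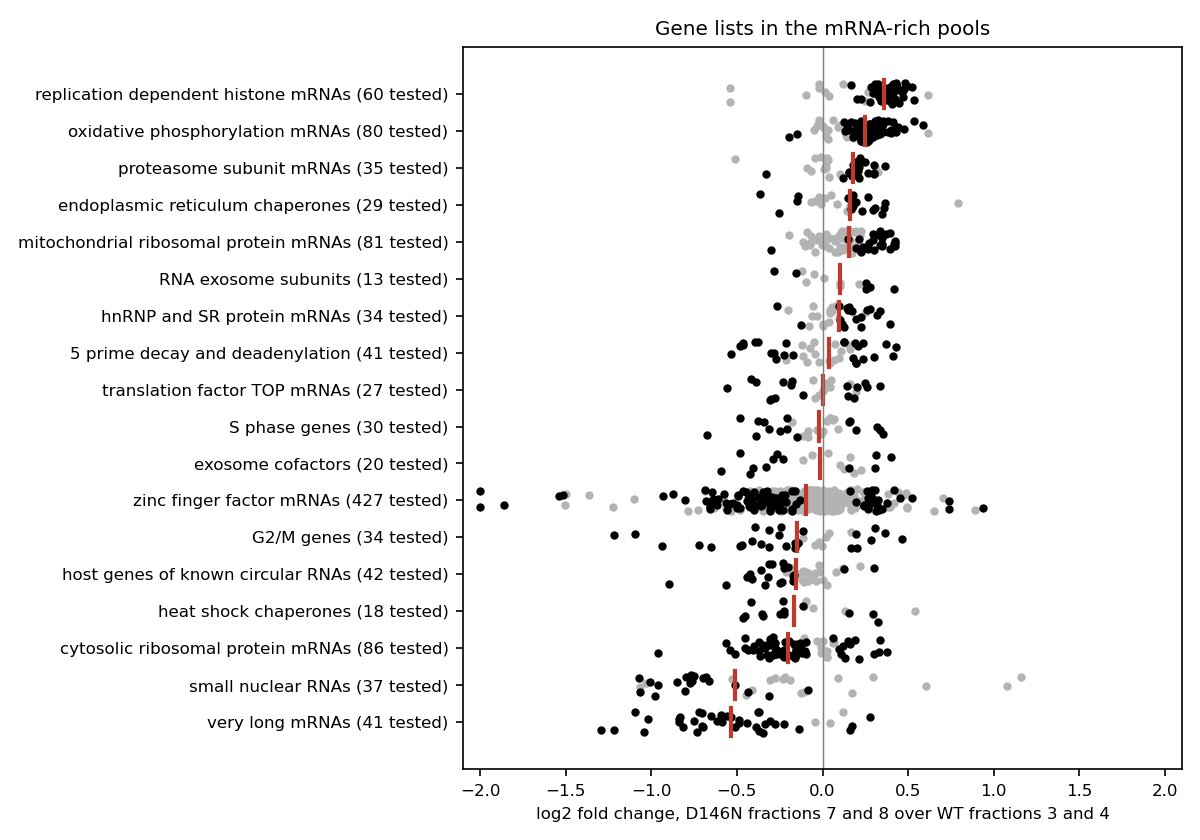
Log2 fold changes of the tested members of 18 gene lists, D146N fractions 7 and 8 over WT fractions 3 and 4 (x axis; values beyond 2 drawn at 2); black points were called, grey points were not, and red bars are list medians. Small nuclear RNAs entered the choice of the pools and are shown as a description. Histone (0.36) and oxidative phosphorylation (0.25) medians lie to the right, and very long (-0.53) and cytosolic ribosomal protein (-0.20) medians to the left; the S phase, exosome cofactor and zinc finger factor medians turn direction on library totals.

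The messages of cytosolic ribosomal proteins went the other way. Of 86 tested, 60 (69.8%) were lower and 13 (15.1%) higher, against 13.1% and 10.4% of all genes, with a median of -0.20. On library totals 38 were lower and 22 higher, with a median of -0.05. RPS29, a small protein of the small subunit, had 408, 441 and 460 CPM in D146N, against 800, 858 and 911 CPM in WT. The groups did not overlap, and at -0.96 (SE 0.02, adjusted p = 5.28e-22) it had the largest decrease of the list. RPL37 was lower at -0.56, RPS19 at -0.54, RPS21 at -0.51 and the stalk protein RPLP1 at -0.46. RPL36AL was higher at 0.38. Ribosomal protein genes have many processed copies in the genome, so their counts can depend on how shared reads were assigned.

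Other parts of the translation machinery were mixed. For all genes tested the shares were 10.4% higher and 13.1% lower, or 4952 and 1364 of 19217 on library totals. Of 27 translation factor messages with a 5′ terminal oligopyrimidine tract, 10 were lower and 7 higher (median 0.00), or 7 lower and 15 higher on library totals. EIF3A, the largest subunit of initiation factor eIF3, was lower at -0.56, TPT1 at -0.42 and the elongation factor EEF1A1 at -0.28, with 1820 to 1900 CPM in D146N and 2230 to 2300 CPM in WT. Of 20 cytosolic aminoacyl-tRNA synthetases, 10 were lower and 3 higher (median -0.12), or 5 lower and 8 higher on library totals (median 0.03). EPRS1, which carries 2 synthetases in 1 protein, had 159, 165 and 173 CPM in D146N, against 243, 253 and 254 CPM in WT. Its groups did not overlap, at a log2 ratio of -0.60 (SE 0.03, adjusted p = 1.09e-16). Of 33 ribosome biogenesis factors, 11 were lower and 7 higher (median -0.02), or 6 lower and 14 higher on library totals (median 0.13), with UTP20 at -0.59 and DDX21 at -0.45.

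Protein folding and turnover lists differed in direction. Calls over all genes were 10.4% higher and 13.1% lower, or 4952 and 1364 of 19217 on library totals. Of 35 proteasome messages, 19 (54.3%) were higher and 1 lower, with a median of 0.18. PSMD8 was higher at 0.36, and PSMD1, the largest subunit, was lower at -0.33. Of 29 chaperones of the endoplasmic reticulum, 13 were higher and 4 lower (median 0.16), or 22 and 1 on library totals. SEC61B was higher at 0.36 and PDIA6 at 0.31, whereas HSP90B1 was lower at -0.37, with 313 to 342 CPM in D146N and 414 to 425 CPM in WT. Of 18 heat shock chaperones, 10 were lower and 3 higher (median -0.17), or 7 lower and 4 higher on library totals (median -0.02). HSP90AA1 was lower at -0.47 (SE 0.02, adjusted p = 4.23e-16), HSPA8 at -0.45 and HSP90AB1 at -0.23.

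Messages for RNA-binding proteins were more often called higher. The shares over all genes were 10.4% higher and 13.1% lower, or 4952 and 1364 of 19217 on library totals. Of 34 hnRNP and SR proteins, 16 (47.1%) were higher and 2 lower, with a median of 0.10. SRSF9 was higher at 0.39 and HNRNPA1 at 0.33, and HNRNPU was lower at -0.27. Of 28 messages for proteins of spliceosomal particles, 13 were higher and 4 lower (median 0.16), or 22 and 2 on library totals. SNRPG, a Sm ring protein, was higher at 0.38 and SNRNP70 at 0.36, whereas the large proteins SF3B1 and SNRNP200 were lower at -0.50 and -0.49. Of 31 factors of circular RNA biogenesis and decay, 6 were higher and 7 lower (median 0.01), or 14 and 3 on library totals, with DHX9 at -0.37 and TNRC6B at -0.34.

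The series concerns circular RNA, but no row of the table names a circular RNA, so only host genes could be read. Of 42 host genes of known circular RNAs that were tested, 18 (42.9%) were lower and 2 (4.76%) higher, with a median of -0.16. Among all genes 13.1% were lower and 10.4% higher. On library totals 8 were lower and 7 higher, with a median of -0.01. BPTF, a chromatin remodelling subunit, had 66.2, 68.2 and 72.7 CPM in D146N, against 119, 127 and 138 CPM in WT. No library overlapped with the other genotype, and the log2 fold change was -0.90 (SE 0.04, adjusted p = 3.54e-18). ANKRD17 was lower at -0.44, the remodeller SMARCA5 at -0.41 and the export receptor XPO1 at -0.34. These counts hold the linear message of the gene and any circular form together.

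Stress and signalling lists had no common direction. Among all genes tested 10.4% were higher and 13.1% lower, or 4952 and 1364 of 19217 on library totals. Of 30 genes of the integrated stress response, 9 were higher and 6 lower (median 0.01), or 17 and 2 on library totals. ASNS, asparagine synthetase, was lower at -0.39 and SLC7A11 at -0.38, and SESN2 was higher at 0.35. Of 20 p53 targets, 4 were higher and 1 lower, the cyclin gene CCNG1 at -0.67, and on library totals 12 were higher and 1 lower. Interferon-stimulated genes gave 0 higher and 2 lower calls of 19 in edgeR's test, among them HERC5 at -0.61. At an unadjusted p under 0.05 they gave 3 and 3, with DESeq2 0 and 2, and on library totals 3 and 1. Of 20 glycolysis enzymes, 4 were higher, with TPI1 at 0.34, and 2 lower. Cholesterol genes, 25 in all, gave 3 higher (12.0%) and 4 lower (16.0%), near the shares of all genes. On library totals 10 glycolysis enzymes were higher, and 7 cholesterol genes higher and 2 lower. Of 427 zinc finger factor messages, 74 (17.3%) were lower and 30 (7.03%) higher (median -0.09), or 29 lower and 68 higher on library totals (median 0.05). Of 29 cytoskeletal messages, 9 were higher, among them MYL6 at 0.40 and CFL1 at 0.36, and 5 lower, or 17 and 3 on library totals. MYH10, the heavy chain of a nonmuscle myosin, was the lowest of these at -0.93 (SE 0.03, adjusted p = 2.29e-21), with 145 to 154 CPM in D146N and 273 to 300 CPM in WT.

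Small noncoding RNAs entered the choice of the pools. They were part of the fits, but their levels and changes are given as a description only. SCARNA2, a guide RNA of Cajal bodies, took 3.16 to 3.62% of all counts in D146N and 2.46 to 2.6% in WT, and RN7SK took 2.02 to 2.11% in D146N and 1.92 to 1.99% in WT. RMRP, the RNA of RNase MRP, took 0.568 to 0.601% in D146N and 0.685 to 0.751% in WT. VTRNA1-3 had 44.1 to 57.0 CPM in D146N and 124 to 151 CPM in WT, with no overlap. Median log2 fold changes were -0.51 over 37 small nuclear RNAs, -0.39 over 149 small nucleolar RNAs and -0.09 over 15 Cajal body RNAs that were tested (0.06 for the Cajal body RNAs on library totals). Among long noncoding RNAs, MALAT1, which is known as a nuclear transcript, had 1810, 1920 and 2020 CPM in D146N, against 2290, 2360 and 2510 CPM in WT, with no overlap and a log2 ratio of -0.32 (SE 0.02, adjusted p = 3.08e-11). NORAD, a decoy of Pumilio proteins in the cytoplasm, was higher at 0.19.

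To see whether the differences were also found in libraries that the choice had left out, D146N fractions 3 and 4 were compared with WT fractions 7 and 8, again as 3 sums against 3. No library is shared with the comparison above, but the 3 sets per genotype are the same, so the 2 comparisons are not independent replicates. The fractions also change sides, with D146N now in fractions 3 and 4 and WT in 7 and 8. A plain difference between fractions would thus take opposite directions in the 2 comparisons, and cannot be told apart from a genotype difference that turns. Of 15964 genes tested, 4477 (28.0%) were called, 2367 (14.8%) higher and 2110 (13.2%) lower in D146N, and without WT replicate 3 the calls were 6085. Of 15422 genes tested in both comparisons, 1819 were called in both, which is 40.4% of the mRNA-rich calls and 40.6% of the mRNA-poor calls. In 60.7% of these the directions were opposite: 830 genes were lower in the mRNA-rich and higher in the mRNA-poor pools, and 275 the reverse. Another 470 were higher and 244 lower in both. Without WT replicate 3 the opposite share was 56.3% of 2408.

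Very long messages were higher in D146N in the mRNA-poor pools, 33 of 41 with 0 lower and a median of 0.66 (34 higher and 2 lower without WT replicate 3). At an unadjusted p under 0.05 edgeR's test gave 34 higher and 1 lower, and DESeq2 gave 27 and 0. CENPF had 27.5, 29.3 and 30.9 CPM in the lowest, median and highest D146N library of those pools, against 4.65, 6.03 and 6.36 CPM in WT. The genotypes were fully apart, with a log2 fold change of 2.35 (adjusted p = 3.64e-09) opposite to that of the mRNA-rich pools, and 2.28 without WT replicate 3. Histone messages were lower there, 46 of 55 with 0 higher and a median of -0.83 (50 lower and 1 higher without WT replicate 3). Unadjusted counts were 47 lower and 0 higher, and DESeq2 gave 45 and 0. H2BC26 had 78.7 to 87.2 CPM in D146N and 119 to 204 CPM in WT, a log2 fold change of -1.16 (-1.28 without WT replicate 3). Oxidative phosphorylation messages were lower for 40 of 80 and higher for 6 (median -0.38), or 55 lower and 10 higher without WT replicate 3, and S phase genes were higher for 18 of 30 with 0 lower (22 higher and 1 lower without WT replicate 3; 20 and 1 unadjusted in edgeR; 12 and 0 in DESeq2). Cytosolic ribosomal protein messages were lower in both comparisons, here 30 of 86 lower and 1 higher (median -0.29), and 71 lower and 7 higher without WT replicate 3 (median -0.35). CPM values of the mRNA-rich and mRNA-poor pools were scaled separately and are not compared with each other.

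**Figure D5:**
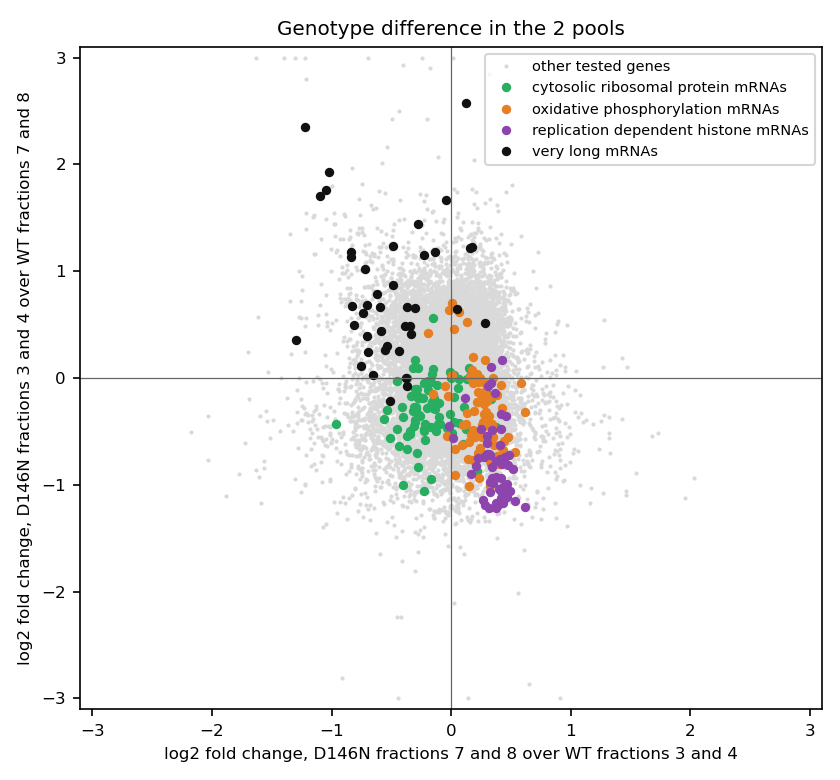
Log2 fold change of D146N over WT in the mRNA-rich pools (x axis) and in the mRNA-poor pools (y axis) for every gene tested in both, with 4 lists in colour; values beyond 3 are drawn at 3. Very long messages lie mostly at the upper left (medians -0.53 and 0.66), histone messages at the lower right (0.36 and -0.83), and cytosolic ribosomal protein messages at the lower left (-0.20 and -0.29).

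The difference between the 2 comparisons was tested as an interaction over 12 sums. Since the pools hold opposite fractions in the 2 genotypes, this contrast equals fractions 7 and 8 against fractions 3 and 4 over both genotypes. A ratio that changes between pools and a plain difference between fractions therefore cannot be told apart here. Of 20001 genes, 4188 (20.9%) were called, with the D146N over WT ratio higher in the mRNA-rich pools for 1407 (7.03%) and lower for 2781 (13.9%). Without WT replicate 3 these were 1800 and 2831. Both sums of a set come from the same set of fractions, and the fit treats them as independent. That split depended on the scaling: with median-of-ratios size factors it was 1844 higher and 2265 lower, and with library totals 2744 higher and 1334 lower. Of very long messages 38 were called lower and 0 higher (40 and 0 unadjusted in edgeR, 37 and 0 in DESeq2, 39 and 0 without WT replicate 3). Of histone messages 49 were called higher and 0 lower (51 and 0 unadjusted, 51 and 0 in DESeq2, 52 and 0 without WT replicate 3). For DIS3 the difference was -0.95 (adjusted p = 4.53e-06), and -0.89 without WT replicate 3. In the mRNA-poor pools DIS3 was higher in D146N at a log2 fold change of 0.80 (adjusted p = 1.2e-04; 0.72 without WT replicate 3), with 8.09 to 10.1 CPM in D146N and 4.44 to 6.29 CPM in WT.

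Of the 470 genes higher and 244 lower in both pools, 5 each way are named, picked after their values were seen. They had no overlap of libraries in either pool, at least 10 CPM in the mRNA-rich pools and the largest change, taken as the smaller of the 2 log2 fold changes. Higher were TNKS1BP1, TECPR1, GIT1, C15orf39 and PRRC2A, and lower were ZNF124, FIRRE, DNA2, FCHO2 and MIR3609. For MIR3609, the gene of a microRNA, this is a description, since small noncoding RNAs chose the pools. PRRC2A, a large RNA-binding protein, had 250, 260 and 272 CPM in D146N, against 182, 190 and 197 CPM in WT, in the mRNA-rich pools. Its log2 fold change was 0.46 (SE 0.03, adjusted p = 2.11e-14) there and 0.72 (adjusted p = 8.8e-05) in the mRNA-poor pools, or 0.73 there without WT replicate 3. DNA2, a nuclease and helicase of replication, was lower at -0.52 in the mRNA-rich and -0.67 in the mRNA-poor pools (-0.75 without WT replicate 3). FIRRE, a nuclear noncoding RNA of the X chromosome, was lower at -0.56 and -0.60 (-0.44 in the mRNA-poor pools without WT replicate 3).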

How the data were processed

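Ribosomal RNA depleted libraries were made with KAPA kits and sequenced on an Illumina NovaSeq, per the labels' protocols. The authors deposited expected counts per gene in 61853 rows for 24 libraries, without normalization. Of the nonzero values 73.28% were whole within 0.005. Tools in the submitters' processing notes were featureCounts 1.5.1, SAMtools, HISAT2 2.1.0 and Bowtie2 2.3.5, on build hg38, without roles, and strand use is not given in the sources used here. Values were rounded to whole numbers, since the design had assumed whole counts. Symbols matched 99.92% of rows; positions, biotypes and sequences came from RefSeq (GRCh38.p14).

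Samples were grouped by title. The fractions of each set were summed, and 3 sums per genotype were compared with edgeR 4.0.16 in R 4.3.3: TMM, filterByExpr, robust quasi-likelihood fit and Benjamini-Hochberg adjustment over all tested genes. The 4 fraction pairs used 12 single libraries. SE is the absolute log2 fold change over the root of F. CPM per library uses TMM factors, except for marker genes, which use library totals. The biological coefficient of variation was 8.29% in the mRNA-rich and 13.9% in the mRNA-poor sums. The labels mention no molecular identifiers.

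The pools, the members and the 40 gene lists were chosen with earlier results of these data known. Named genes were DIS3, 15 each way (called, at least 10 CPM on average, no overlap of libraries, the same direction on library totals, largest change), and up to 4 of each list with the smallest p; others are named as list members. Scripts were tested on simulated data. Alternatives were median-of-ratios factors, library totals, small and mitochondrial RNAs left out, other filters, a replicate block, each replicate left out, DESeq2 1.42.0, single libraries and limma 3.58.1 voom. Some genes are not reported here.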

Additional observations from a re-analysis of the deposited data

Results flagged for a closer look

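Of 62 groups of 6 libraries tested for a library apart from the rest, 7 had one, and chance flags about 1 in 20 groups. WT fraction 3 replicate 2 was high for DIS3 (118 CPM), AKAP9 (203 CPM) and KCNQ1OT1 (32.9 CPM) among the 6 WT libraries, and WT fraction 3 replicate 1 was high for FNDC10 (24.4 CPM). WT fraction 4 replicate 1 was low for MT-ND6 (87.2 CPM). D146N fraction 7 replicate 2 was high for GAR1 (58.5 CPM) and CENPE (107 CPM) among the 6 D146N libraries. Without D146N replicate 2 the log2 fold change was 0.50 for GAR1 and -1.19 for CENPE.

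The D146N over WT ratio differed between the mRNA-rich and the mRNA-poor pools for 4188 genes by the interaction test in edgeR. As the fractions change sides between the pools, that test cannot tell this from a plain difference between fractions. For DIS3 the difference, mRNA-rich minus mRNA-poor, was -0.95 on the log2 scale. Without WT replicate 3 there were 4631 such genes, and for DIS3 the difference was -0.89. Among the 15 genes named as lower in D146N it was negative for all 15, with and without that replicate. These genes were chosen by their mRNA-rich change, which is part of the difference, so the choice favours a negative sign. The difference was largest in size for MIR4521 (-4.05) and CENPF (-3.60). Next came CENPE (-2.83), AKAP9 (-2.79), DBNDD1 (-2.71), FNDC10 (-2.64), EEA1 (-2.43), PITX1 (-2.33), CPNE2 (-2.23) and ADIPOR1 (-2.11). Below 2 in size were STRADB (-1.85), LYPLA1 (-1.73), TTN (-1.68) and KCNQ1OT1 (-1.64). For the vault RNA VTRNA1-3 (-2.73) and for MIR4521 the value is a description, since small noncoding RNAs chose the pools. Some genes were near the floor in the mRNA-poor WT libraries. MIR4521 had 0.137 to 0.366 CPM there, FNDC10 0.156 to 0.458 CPM and DBNDD1 0.133 to 0.42 CPM.

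Among the 15 genes named as higher in D146N, whose choice by the mRNA-rich change favours a positive difference, the difference was called for 10. It was positive for H2BC26 (1.66), SEC61G (1.31), NDUFC2 (1.20), LAMTOR5 (0.93), ATP6V0E1 (0.81), MBD6 (0.80), SDHD (0.61), GAR1 (0.59) and MT-ND6 (0.59). Without WT replicate 3 the difference for MT-ND6 was 0.37, and its mRNA-poor log2 fold change was 0.29 (adjusted p = 0.000436 in edgeR) in place of 0.05 (adjusted p = 0.851). The difference was negative for TNKS1BP1 (-0.48), which was higher in D146N in both pools.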

How the results depend on the processing

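In the mRNA-rich pools the count of called genes was 3275 to 6316 under all alternatives, against 4507, and 3751 to 4013 without any 1 replicate. On library totals the higher share of calls was 78.4%, against 44.2%, and in the 4 fraction pairs it was 75.1%, against 29.9%. For the interaction it was 67.3% on library totals, 44.9% with median-of-ratios factors and 46.6% with DESeq2, against 33.6%. The mRNA-poor count, 4477, was 2839 with DESeq2 and 2869 to 6085 without any 1 replicate, with 2869 without D146N replicate 1, 2889 without D146N replicate 3 and 6085 without WT replicate 3; on library totals its higher share was 35.2%, against 52.9%. The interaction gave 2959 to 4631 calls and the 4 fraction pairs 1197 to 1348 without any 1 replicate.

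Same-numbered D146N and WT sums did not deviate together, with correlations of 0.0177, 0.00472 and 0.0114 in the mRNA-rich and 0.00882, -0.0272 and -0.0273 in the mRNA-poor pools. With a replicate block the calls were 4692 in the mRNA-rich pools, 4182 in the mRNA-poor pools, 3993 for the interaction and 1618 in the 4 fraction pairs. With that block DIS3 passed the threshold at the same log2 fold change of -0.12 (adjusted p = 0.0148 in edgeR). The 30 genes named by size kept their call under every alternative that could be run, apart from GAR1 without WT replicate 3. VTRNA1-3 and MT-ND6 gave no value where small and mitochondrial RNAs were left out. Of 184 genes named by the rule, 24 lost a call and 5 gained one under at least 1 alternative, 9 of the losses on library totals and 15 with 24 single libraries in the fit; the cause was not tested. Among genes named in the text, the fit with 24 single libraries lost EXOSC9, TPI1, SDHC, MDH2, PSMD8, CFL1, AFP and COL6A3. Low counts limit genes under a few CPM.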

Other observations

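Of 15 tested hepatocyte markers, 4 (26.7%) were lower in D146N in the mRNA-rich pools, against 13.1% of all genes, and 11 did not pass. The list median was -0.01, and on library totals 4 were higher and 3 lower. APOB, the scaffold protein of lipoproteins and itself a very long message, had 257, 272 and 278 CPM in D146N, against 394, 412 and 422 CPM in WT, with no overlap; edgeR's quasi-likelihood test gave -0.61 on the log2 scale (SE 0.03, adjusted p = 5.87e-18). FGB, a fibrinogen chain, was lower at -0.42, ITIH2 at -0.62 and AFP, the fetal serum protein, at -0.25. AFP missed the threshold on library totals (-0.10, adjusted p = 0.0528 in edgeR). Of 9 fibroblast markers 2 (22.2%) were higher and 2 (22.2%) lower. FBN1, the large matrix protein fibrillin, was lower at -0.75, with 32.6 to 39.5 CPM in D146N and 56.6 to 67.1 CPM in WT. COL6A3 was lower at -0.40, and the collagen genes COL1A1 and COL5A1 were higher at 0.47 and 0.44. On library totals COL6A3 missed the threshold (-0.25, adjusted p = 0.0818 in edgeR). Of 36 host genes of small nucleolar RNAs 32 were tested, with 4 higher (12.5%, against 10.4% of all genes) and 6 lower (18.8%, against 13.1%). On library totals 12 were higher and 4 lower. SNHG3 was lower at -0.61, SNHG5 at -0.38 and GAS5 at -0.21, with 545 to 554 CPM in D146N and 622 to 649 CPM in WT. Of 18 immediate early genes tested, 2 (11.1%) were higher and 3 (16.7%) lower, near the shares of all genes, or 3 and 3 on library totals. JUND was lower at -0.59, with 28.8 to 32.3 CPM in D146N and 40.1 to 50.3 CPM in WT, and JUN was higher at 0.20.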
